A study of Nicotiana tabacum with 12 samples.

Results

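Leaves of the tobacco (Nicotiana tabacum) overexpression line labelled YOE were compared by RNA sequencing with leaves of the wild-type cultivar K326. Each side had 3 libraries, so the comparison used 6 of the 12 libraries in the study. The remaining libraries, 3 of a knockout line labelled Q18 and 3 of a second wild type labelled KY, entered the estimate of the spread between replicates, and their values are given side by side only. All samples were labelled as leaf, the design text places them at the seedling stage, and no treatment was named. The question of the study was how NtCISZOG, by its name a glucosyltransferase of cis-zeatin, bears on chlorophyll content. The promoter, the number of transgenic plants and the number of plants in a library are not given in the sources used here. Nothing in the labels says that replicates were separate plants, so the p-values rest on library-to-library spread alone, and that spread may be technical.

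The labels do not name the background of YOE, and the design text names its overexpression line KY-OE-31. The raw reads of YOE are named G31, which carries the number of that line, so whether YOE derives from KY or K326, and whether lines were exchanged, is not settled by the sources used here. K326 was taken for the comparison because the YOE libraries resembled it at genes that separate the 2 cultivars. One set held 87 genes that reached 2 TPM throughout K326 and stayed at or under 0.2 throughout KY, and YOE libraries 1, 2 and 3 had 85, 82 and 85 of them at 1 TPM or more. Of 13 genes with the opposite state they had 0, 1 and 1. An effect of the transgene cannot be told apart from any other difference between the YOE plants and K326. NtCISZOG was not identified from the gene descriptions, so the overexpression label could not be checked against its own gene.

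Cytokinins are plant hormones made from adenine, and zeatin is the best known of them. LOG enzymes release the active base, cytokinin dehydrogenases destroy it, and O-glucosyltransferases attach a sugar that stores it. Histidine kinase receptors and response regulators carry the signal, which in leaves promotes greening and delays senescence. Chlorophyll is made from protoporphyrin IX, into which magnesium chelatase inserts magnesium. Tobacco is an allotetraploid, so most genes have a homeologous copy, and reads of near-identical copies can be split between them.

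Values are deposited TPM divided by a factor for each library and are called scaled TPM. The factor was a median ratio, taken over the 20130 genes that no library had below 1. It ran from 0.516 to 0.867 in YOE and from 0.923 to 1.307 in K326. Of 69500 genes, 31064 were tested. The summed level of the light-harvesting genes, which mark mesophyll, was 31042, 44247 and 23568 scaled TPM in YOE libraries 1, 2 and 3 and 28284, 23243 and 39824 in K326. Seed storage and oleosin genes summed to at most 13.1 in YOE and 12.9 in K326.

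YOE differed from K326 at 3206 genes, of which 1738 were higher and 1468 lower (limma with Benjamini-Hochberg adjustment at 0.05). This is 10.3% of the genes tested, 5.59% higher and 4.73% lower, and the median log2 difference over all of them was -0.02. The median size was 1.06 on the log2 scale among the higher genes and -0.74 among the lower ones. Without scaling the median log2 difference was -0.51, and 592 genes were higher and 11551 lower, 1.89% and 36.9% of the 31311 tested there. All changes below are therefore on the scaled values, relative to that shift.

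YOE library 1 stood nearer to K326 than the other YOE libraries did. Its correlation with K326 libraries across genes was 0.948 to 0.959, against 0.896 to 0.912 for YOE libraries 2 and 3. K326 libraries correlated with each other at 0.967 to 0.974, and YOE libraries at 0.934 to 0.954. YOE library 1 correlated with YOE libraries 2 and 3 at 0.954 and 0.934, so it was about as close to K326 as to its own group. Among the 1738 higher genes, library 1 was the lowest of the 3 YOE libraries at 1169. Among the 1468 lower genes it was the highest of the 3 at 1090. Leaving out YOE library 1 raised the calls to 2807 higher and 2458 lower, 9.10% and 7.97% of the genes tested. The calls were 484 and 384 without YOE library 2 (1.57% and 1.25%) and 1291 and 990 without YOE library 3 (4.19% and 3.22%). They were 1138 and 1096 without K326 library 1 (3.68% and 3.54%), 788 and 561 without K326 library 2 (2.55% and 1.82%), and 591 and 423 without K326 library 3 (1.91% and 1.37%). In the 6 compared libraries alone, with their own estimate of the spread, 118 were higher and 61 lower (0.406% and 0.210%). The main fit shares 1 spread over the groups, and these were not equally even. Q18 libraries correlated with each other at 0.965 to 0.975 and KY libraries at 0.975 to 0.983, above the YOE libraries. The shared spread may therefore be too small for YOE. Of the 3206 genes, 675 were called in each of the 6 fits that left out 1 library, 384 higher and 291 lower. These are 1.24% and 0.937% of the genes tested, and they are called the stable genes below. Q18 and KY still entered the spread of those 6 fits. Of the 675 stable genes, 134 were also called in the 6 libraries alone.

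**Figure D1:**
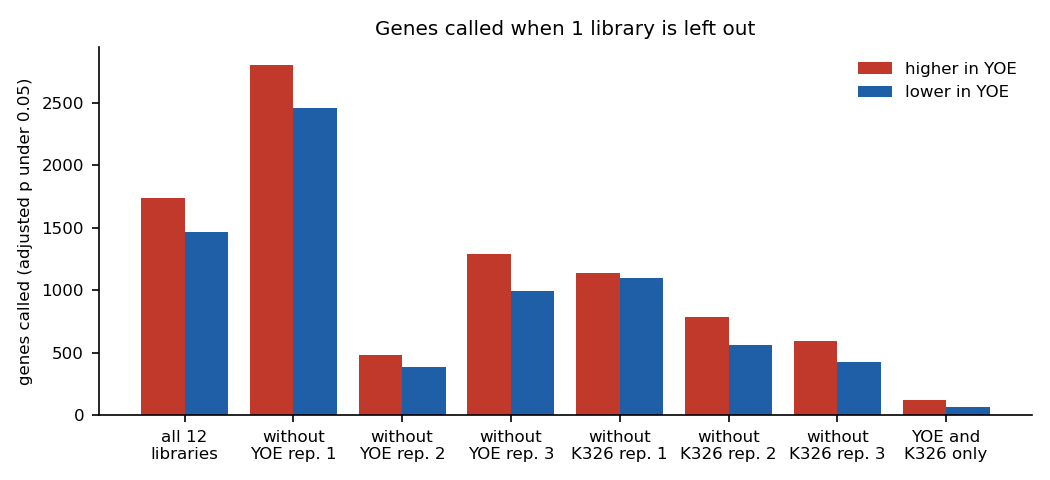
Number of genes called higher (left bar) and lower (right bar) in YOE than in K326, at an adjusted p under 0.05, with all 12 libraries, with 1 library left out, and with the 6 compared libraries alone. The count was 2807 and 2458 without YOE library 1 and 118 and 61 in the 6 libraries alone.

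Among lists of genes grouped by their descriptions, jasmonate genes had the greatest share of higher members, followed by xylem, phloem and terpene synthase genes. Nitrate and ammonium genes had the greatest share of lower members, followed by the joint list of sugar-phosphate and SWEET transporters, papain-type proteases, and peroxidases and glutathione transferases. Of the 23 lower genes of the joint list 16 were SWEET genes, and triose-phosphate transporter genes had 7 lower and 2 higher of 73, with a median log2 difference of 0.06. Genes of chlorophyll synthesis had no called member. The counts of each list below stand against 5.59% higher and 4.73% lower over all genes tested, and several lists lay near those shares. In bulk leaf RNA, more cells of a type and more RNA per cell cannot be told apart.

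**Figure D2:**
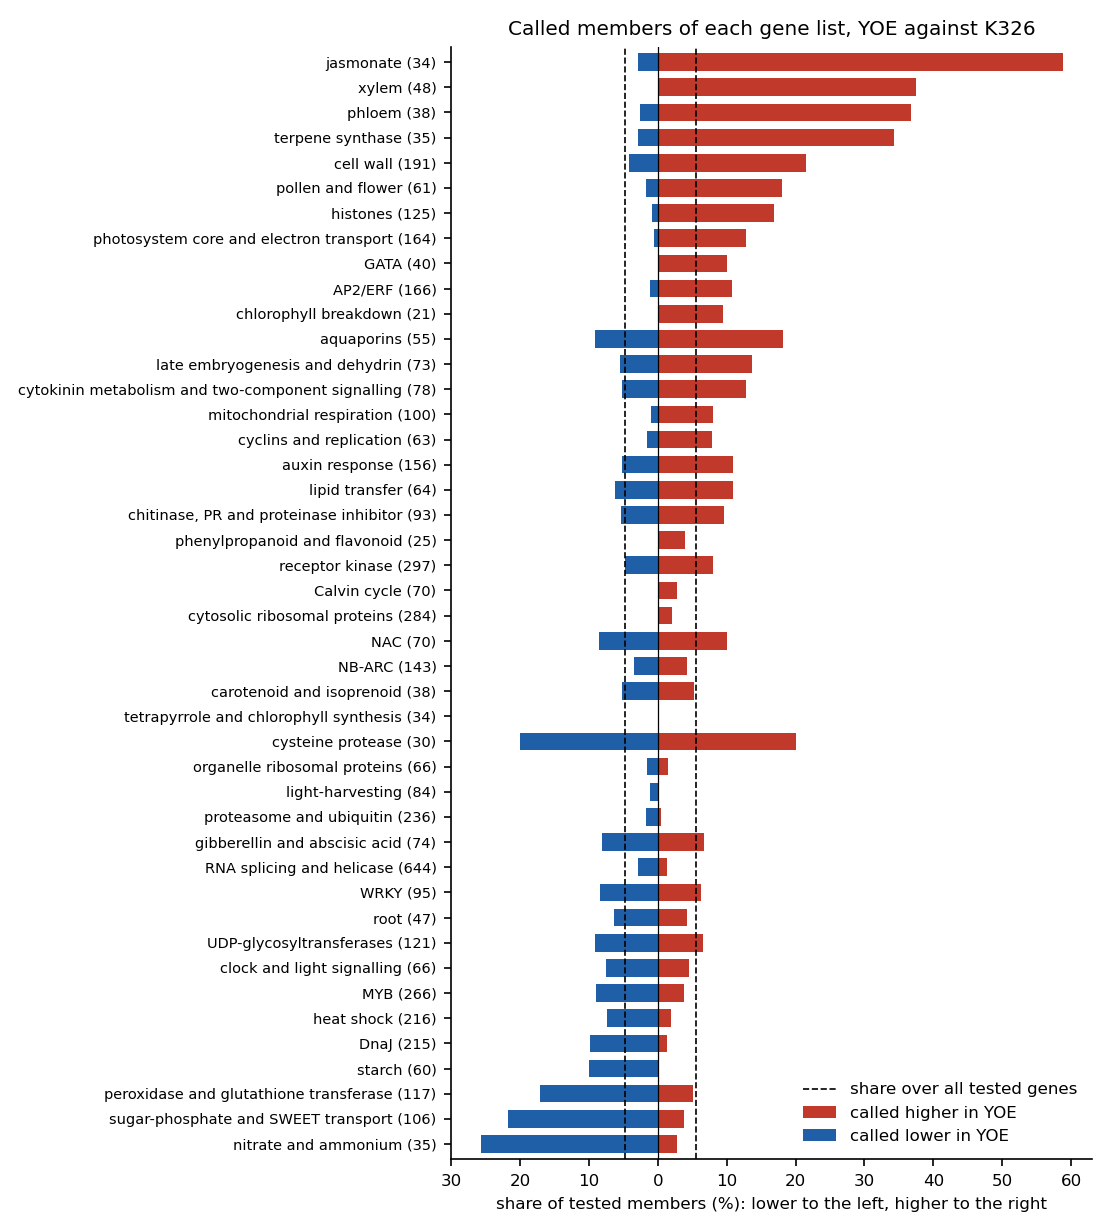
Share of the tested members of each gene list (number tested in parentheses) called higher (to the right) or lower (to the left) in YOE than in K326, for lists with 20 or more tested genes. The dashed lines mark the shares over all tested genes, 5.59% higher and 4.73% lower, and the jasmonate bar reaches 58.8%.

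Most of the tested jasmonate genes were called higher in YOE. Jasmonates are lipid hormones of wounding and defence. Lipoxygenases oxygenate linolenic acid, allene oxide cyclase makes the cyclic precursor, and JAZ proteins, which carry a Tify domain, repress the response. Of 62 listed genes 34 were tested, and 20 were higher, 1 lower and 13 not called, with a median log2 difference of 1.18. The 21 called members lay outside the range of all 9 libraries of K326, Q18 and KY. Over all genes tested, 3.74% were called higher and above those 9 libraries and 2.33% called lower and below them. With 1 library left out, 10 to 22 members were higher, 10 in every such fit, and 6 in the 6 libraries alone (against 0.406% of all genes tested there). On unscaled values 12 were higher and 6 lower, with a median of 0.56. The whole list summed to 1266, 2424 and 2409 scaled TPM in YOE libraries 1, 2 and 3, against 501, 657 and 611 in K326, 441.2 to 586 in Q18 and 339.5 to 449.6 in KY.

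Both tested allene oxide cyclase genes were among the higher ones, and they were named after their values had been seen. Nitab4.5_0004118g0110 stood at 104, 300.1 and 185 scaled TPM in YOE libraries 1, 2 and 3, against 36.1, 41.6 and 39.0 in K326. Every YOE library was above every K326 library, with library 1 the lowest (log2 change 2.18, SE 0.31, limma adjusted p = 0.00498). Nitab4.5_0007287g0040 had 83.1, 297 and 246 in YOE, against 32.6, 38.1 and 33.7 in K326 (log2 change 2.36, SE 0.37, limma adjusted p = 0.00686). Q18 ran from 28.7 to 44.3 at the first gene and from 31.2 to 42.7 at the second, within or near the K326 range.

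Of 16 tested Tify genes, 12 were higher and 0 lower, and the median log2 difference was 1.50. Nitab4.5_0006232g0010 held 65.1, 77.0 and 80.5 scaled TPM in YOE, against 21.2, 27.4 and 22.3 in K326. The YOE libraries were close to each other here, and library 1 did not stand apart (log2 change 1.61, SE 0.21, limma adjusted p = 0.00415). Nitab4.5_0002046g0020 was a low gene with the same order, at 5.65, 8.11 and 6.92 in YOE and 1.87, 2.87 and 2.46 in K326 (log2 change 1.21, SE 0.14, limma adjusted p = 0.00284). By contrast Nitab4.5_0001531g0050, among the 12 largest rises, had 9.68, 56.4 and 169 in YOE, against 0.671, 4.56 and 2.82 in K326. Its YOE libraries spread over more than a 10-fold range, and it passed in 2 of the 6 fits with a library left out (log2 change 3.84, SE 0.90, limma adjusted p = 0.0241). A further 3 Tify genes at high levels, named after their values had been seen, had log2 changes of 1.84 (Nitab4.5_0000343g0360), 2.08 (Nitab4.5_0000073g0270) and 2.31 (Nitab4.5_0004234g0080). The lowest of these 3 genes in any YOE library was 82.0 scaled TPM, and the highest in any K326 library was 66.6.

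Lipoxygenases were mixed. Of 16 tested, 6 were higher, 1 lower and 9 not called. Nitab4.5_0003796g0010, named after its values had been seen, held 89.8, 142 and 116 scaled TPM in YOE, against 46.4, 40.8 and 60.1 in K326 (log2 change 1.22, SE 0.21, limma adjusted p = 0.00941). The lower one, Nitab4.5_0007252g0010, was also named after its values had been seen. It was near the detection range, at 0.872, 0.291 and 0.669 in YOE and 1.75, 1.48 and 1.44 in K326 (log2 change -0.68, SE 0.14, limma adjusted p = 0.0152). On unscaled values 1 lipoxygenase was higher and 5 lower. Which of these genes make jasmonate rather than other oxylipins is not given by the descriptions.

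**Figure D3:**
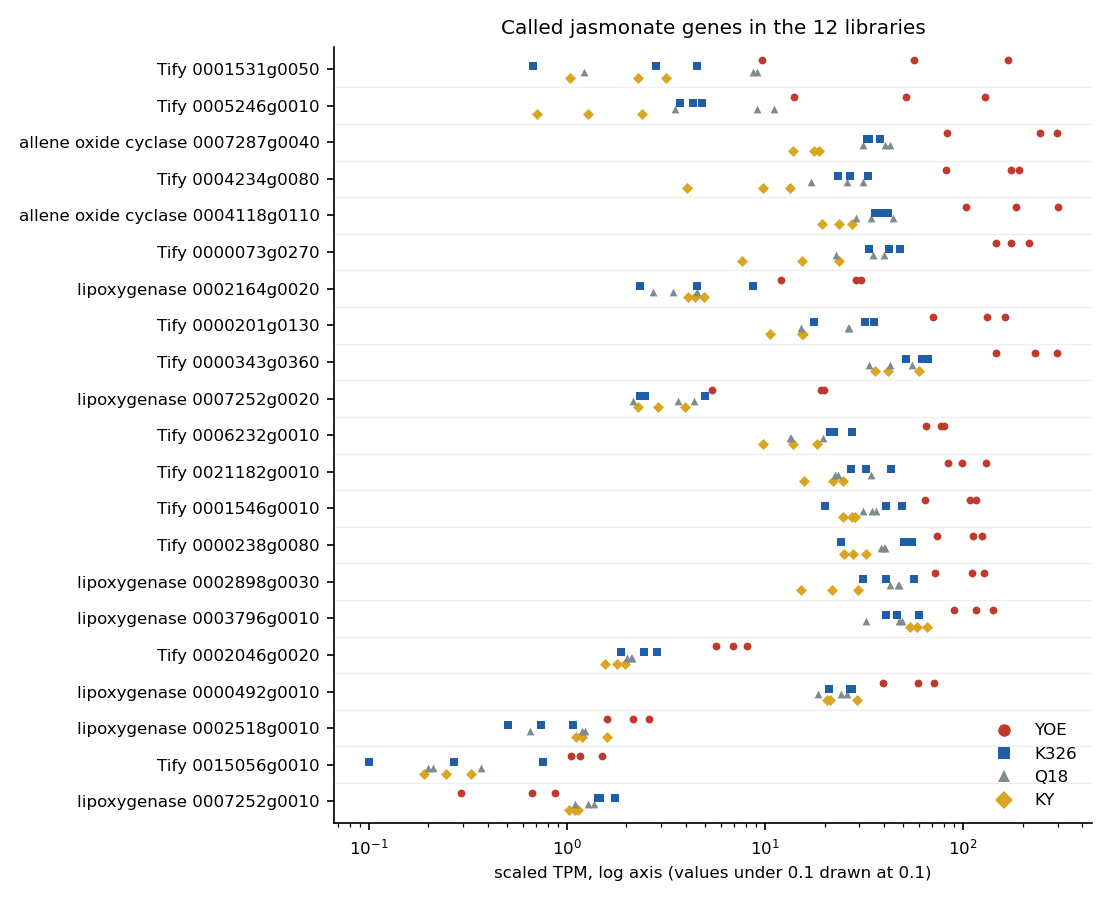
Scaled TPM (log axis) of the 21 called jasmonate genes, 1 per row with its gene number, in the 3 YOE, 3 K326, 3 Q18 and 3 KY libraries. The YOE points of the 20 higher genes lie to the right of the points of all other groups, and those of the lipoxygenase in the bottom row, 0.291 to 0.872, lie to the left.

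Phloem genes included the largest rise of all. Phloem protein 2 is a lectin of sieve elements and companion cells, and some family members carry an F-box and act elsewhere. Of 38 tested genes in the list, 14 were higher and 1 lower, with a median log2 difference of 0.45 and 8 stable higher members. On unscaled values 9 were higher and 9 lower, with a median of -0.07. The sum over the list was 685, 1371 and 1528 scaled TPM in YOE libraries 1, 2 and 3, against 421, 394 and 368 in K326, 469 to 602 in Q18 and 525 to 634 in KY.

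Nitab4.5_0000595g0040, phloem protein 2-like, held 79.6, 216 and 198 scaled TPM in YOE, against 1.92, 10.1 and 7.62 in K326. YOE library 1 was the lowest of its group and still above every other library of the study (log2 change 4.54, SE 0.53, limma adjusted p = 0.00284). Its neighbour by gene number, Nitab4.5_0000595g0010, had 54.0, 35.0 and 20.1 in YOE, against 1.01, 3.49 and 2.76 in K326. Here library 1 was the highest of the YOE libraries (log2 change 3.42, SE 0.43, limma adjusted p = 0.00355). Nitab4.5_0000814g0020 reached 69.2, 398 and 112 in YOE, against 5.12, 5.44 and 19.4 in K326, and Nitab4.5_0006525g0010 reached 58.0, 311 and 409 in YOE, against 6.01, 19.98 and 16.9 in K326. Their log2 changes were 3.98 and 3.83 (limma adjusted p = 0.00598 and 0.00941), and both genes were stable.

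Sieve element occlusion proteins, which form the protein bodies of sieve tubes, were low, and 4 of 5 tested genes were higher in YOE. Nitab4.5_0003917g0020, named after its values had been seen, had 6.27, 6.01 and 2.41 scaled TPM in YOE, against 1.24, 0.704 and 0.827 in K326 (log2 change 1.55, SE 0.30, limma adjusted p = 0.0125). The KY libraries, at 2.69 to 2.78, lay inside the YOE range. None of the 4 was stable, and none was called in the 6 libraries alone.

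Chlorophyllase, which removes the phytol tail of chlorophyll, had 1 gene among the largest rises. Nitab4.5_0011519g0020 stood at 12.4, 30.4 and 50.2 scaled TPM in YOE, against 0.986, 1.68 and 1.56 in K326 (log2 change 3.54, SE 0.43, limma adjusted p = 0.00313). The highest value outside YOE was 2.40, in Q18. A Staygreen gene, Nitab4.5_0011435g0010, whose protein family removes magnesium from chlorophyll, had 3.67, 15.6 and 31.1 in YOE, against 1.17, 3.24 and 1.82 in K326. Its library 1 lay just above the highest K326 library, and it passed in 1 of the 6 fits with a library left out (log2 change 2.19, SE 0.55, limma adjusted p = 0.0306). These 2 were the called members of 21 tested chlorophyll breakdown genes, whose median log2 difference was -0.01. On unscaled values 1 was higher and 11 lower.

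Several of the other genes among the 12 largest rises were low in YOE library 1. Cytochrome P450 Nitab4.5_0003005g0010 held 0.941, 55.5 and 133 scaled TPM in YOE, against 0.119, 0.314 and 0.279 in K326. In library 1 it was below the highest Q18 library, at 1.47, and it passed in 1 of 6 fits with a library left out (log2 change 4.31, SE 1.13, limma adjusted p = 0.0365). A second cytochrome P450, Nitab4.5_0009702g0010, a short-chain dehydrogenase, Nitab4.5_0000812g0020, and a Mob1-type kinase activator, Nitab4.5_0000343g0160, had 2.44, 1.54 and 6.73 in YOE library 1 and 78.3, 36.1 and 55.0 in YOE library 3. Their highest K326 values were 0.283, 0.271 and 2.27, and their log2 changes 4.19, 3.35 and 3.16. Of these, the Mob1-type gene was stable, and the others passed in 3 and 1 of the 6 fits with a library left out. A pectinesterase inhibitor gene, Nitab4.5_0001383g0170, whose family restrains pectin remodelling in the cell wall, was higher in all 3 at 11.1, 91.4 and 38.6 in YOE, against 0.715, 1.91 and 0.353 in K326 (log2 change 4.23, SE 0.58, limma adjusted p = 0.00458).

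Among the 12 largest falls, 8 were stable. Cytochrome P450 Nitab4.5_0000037g0210 had 2.78, 1.45 and 2.04 scaled TPM in YOE, against 19.9, 24.1 and 30.02 in K326 (log2 change -3.06, SE 0.41, limma adjusted p = 0.0043). KY ran from 0.612 to 3.17, so the YOE libraries lay in the KY range. A Myb-domain gene, Nitab4.5_0008488g0010, of a transcription factor family, had 2.33, 0.233 and 1.90 in YOE, against 12.6, 24.3 and 18.8 in K326 (log2 change -3.05, SE 0.42, limma adjusted p = 0.00458). It was below all 9 other libraries, as was the Myb gene Nitab4.5_0000070g0110 (log2 change -2.19). The pair of acyltransferase-domain genes Nitab4.5_0005553g0020 and Nitab4.5_0001003g0130, a copper amine oxidase, Nitab4.5_0004153g0040, which oxidises polyamines, and a transporter of the drug and metabolite superfamily, Nitab4.5_0005555g0010, had log2 changes of -2.50, -2.15, -2.22 and -2.22.

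The remaining 4 were not stable. A PAR1 gene, Nitab4.5_0001754g0010, of a family first described as responding to photoassimilates, had 12.2, 13.98 and 3.45 scaled TPM in YOE, against 83.5, 39.8 and 21.9 in K326, and passed in 2 of 6 fits with a library left out. Its relative Nitab4.5_0003242g0030 was stable (log2 change -2.60). A glycoside hydrolase of family 17, Nitab4.5_0008527g0010, had 0.734, 1.44 and 0.577 in YOE, against 23.7, 6.12 and 4.58 in K326, and passed in 0 of the 6. A glutathione transferase, Nitab4.5_0004523g0050, passed in 3 (log2 change -2.14). The LEA-5 gene Nitab4.5_0000116g0500, of the late embryogenesis abundant family, passed in 5. It had the highest K326 level of the 12, at 206, 44.0 and 148 in YOE and 434, 480.0 and 516 in K326 (log2 change -2.09, SE 0.43, limma adjusted p = 0.0155).

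**Figure D4:**
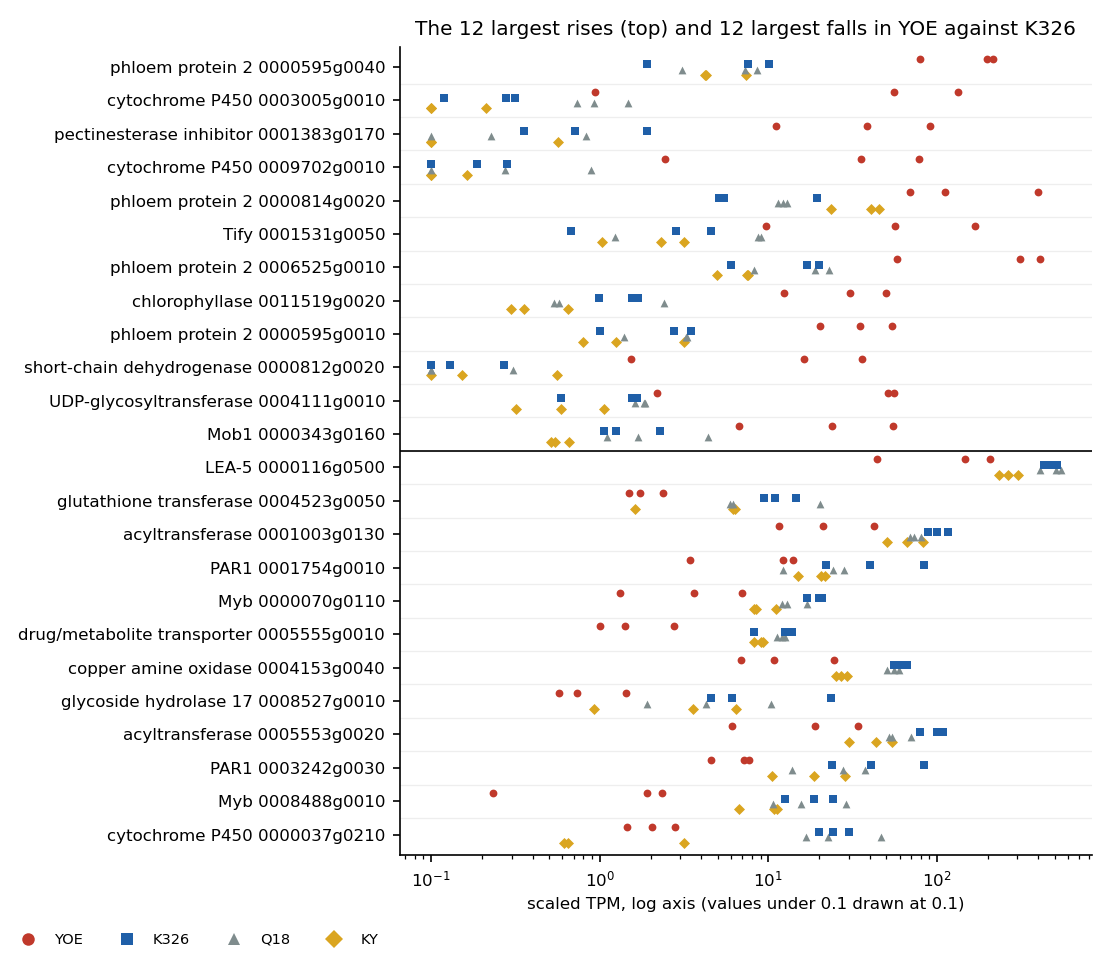
Scaled TPM (log axis) of the 12 largest rises (above the line) and 12 largest falls in YOE against K326, 1 gene per row, in the 3 libraries of each group. Above the line the YOE points spread widely, from 0.941 to 133 at cytochrome P450 Nitab4.5_0003005g0010, and below the line KY points lie in or near the YOE range at some genes.

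SWEET sugar transporters and some nitrogen genes were lower in YOE. SWEET proteins export sugars from cells, among others into the phloem. Of 33 tested SWEET genes, 16 were lower and 2 higher, with a median log2 difference of -0.71. On unscaled values 23 were lower and 1 higher, where 36.9% of all genes tested were lower and 1.89% higher. With 1 library left out, 6 to 17 were lower on scaled values, and 6 were stable. In the 6 libraries alone 1 was lower and 1 higher of 28 tested, against 0.210% and 0.406% of all genes tested there. The summed SWEET level was 676.5, 432 and 472 scaled TPM in YOE libraries 1, 2 and 3, against 816.5, 1168 and 1201 in K326, 1020.0 to 1057 in Q18 and 1174 to 1296 in KY.

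Nitab4.5_0010626g0010 had 18.2, 10.2 and 11.8 scaled TPM in YOE, against 37.2, 48.4 and 57.7 in K326 (log2 change -1.77, SE 0.20, limma adjusted p = 0.00264). Nitab4.5_0001332g0120 had 52.5, 35.1 and 31.9 in YOE, against 75.8, 115 and 112 in K326 (log2 change -1.33, SE 0.20, limma adjusted p = 0.00546). Both were below all 9 other libraries and were stable. The 2 most abundant SWEET genes among those called, Nitab4.5_0004728g0030 and Nitab4.5_0009485g0020, named after their values had been seen, fell by 1.16 and 1.29 on the log2 scale. The first held 222, 135 and 122 in YOE, against 262, 398 and 394 in K326. One of the higher pair, Nitab4.5_0007383g0030, also named after its values had been seen, stood at 7.89, 7.72 and 10.0 in YOE and 2.32, 3.08 and 2.02 in K326 (log2 change 1.46, SE 0.23, limma adjusted p = 0.00696).

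Starch enzymes had 6 lower and 0 higher members of 60 tested. ADP-glucose pyrophosphorylase makes the sugar donor of starch synthesis, and its gene Nitab4.5_0000308g0330 had 12.8, 4.27 and 9.62 scaled TPM in YOE, against 30.5, 28.4 and 23.0 in K326 (log2 change -1.61, SE 0.29, limma adjusted p = 0.0103). It was the single stable starch gene, and in the 6 libraries alone no starch gene was called. KY, at 7.47 to 9.87, lay in the YOE range and Q18, at 41.3 to 56.3, above K326. A glucan phosphorylase, Nitab4.5_0008253g0030, which releases glucose 1-phosphate from starch, had 3.58, 1.53 and 1.74 in YOE and 4.63, 6.18 and 5.55 in K326 (log2 change -1.02).

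Of 35 tested nitrate and ammonium genes, 9 were lower and 1 higher, with a median log2 difference of -0.27 and 6 stable lower members. In the 6 libraries alone none was called. On unscaled values 24 were lower and 0 higher, where 36.9% of all genes tested were lower and 1.89% higher. Ammonium transporters carried much of the fall in scaled values, with 4 of 9 lower and 0 higher. Nitab4.5_0000841g0070 had 13.1, 5.37 and 4.61 scaled TPM in YOE, against 35.5, 28.1 and 35.2 in K326, 37.0 to 47.3 in Q18 and 28.8 to 35.3 in KY (log2 change -2.09, SE 0.28, limma adjusted p = 0.00456). Nitab4.5_0002937g0040, named after its values had been seen, had 21.5, 17.6 and 12.2 in YOE, against 35.6, 33.7 and 33.7 in K326 (limma adjusted p = 0.00858), and it was also below all 9 other libraries. Glutamine synthetase joins ammonium to glutamate. Its gene Nitab4.5_0009806g0020 had 26.6, 13.7 and 22.0 in YOE, against 51.4, 54.3 and 40.2 in K326 (log2 change -1.23, SE 0.24, limma adjusted p = 0.0121), with KY at 21.6 to 25.7.

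Cytokinin genes moved in both directions. Of 78 tested, 10 were higher and 4 lower, and the median log2 difference was -0.01. On unscaled values 4 were higher and 31 lower. LOG genes accounted for 3 of the higher members and 1 of the lower ones, and all 3 higher LOG genes were stable. Nitab4.5_0001297g0040 held 87.5, 95.7 and 69.3 scaled TPM in YOE, against 23.3, 33.4 and 31.1 in K326. All YOE libraries were above the other 9, with KY next at 35.5 to 42.0 (log2 change 1.49, SE 0.18, limma adjusted p = 0.00313). Nitab4.5_0001192g0070 held 31.4, 44.0 and 39.3 in YOE, against 14.6, 16.1 and 16.7 in K326 (log2 change 1.21, SE 0.20, limma adjusted p = 0.00783). The largest LOG change, named after its values had been seen, was at Nitab4.5_0008463g0020, with 33.0, 71.1 and 61.2 in YOE and 3.24, 9.56 and 11.1 in K326 (log2 change 2.71, SE 0.48, limma adjusted p = 0.00973). The lower one, Nitab4.5_0001939g0020, also named after its values had been seen, had 46.5, 38.2 and 30.02 in YOE, against 61.0, 50.8 and 56.0 in K326. Its log2 change was -0.56. On unscaled values 2 LOG genes were higher and 3 lower.

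Cytokinin dehydrogenases destroy cytokinin. Of 7 tested genes, 3 were higher, 0 lower and 4 not called, and the 3 were named after their values had been seen. Nitab4.5_0001861g0120 had 5.20, 11.8 and 9.80 scaled TPM in YOE, against 0.671, 1.54 and 3.16 in K326 (log2 change 1.87, SE 0.34, limma adjusted p = 0.0106). Nitab4.5_0005779g0060 had 2.60, 9.79 and 7.26 in YOE, against 0.650, 1.12 and 0.641 in K326 (log2 change 1.93, SE 0.36, limma adjusted p = 0.0112). The third, Nitab4.5_0001618g0190, had a log2 change of 0.77. Summed over the family the level was 32.9, 44.7 and 38.3 in YOE and 17.3, 20.2 and 23.5 in K326. On unscaled values 2 were higher and 1 lower, with a median of -0.10.

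The signalling side showed no common direction. Of 53 tested response regulators and histidine kinases, 4 were higher, 3 lower and 46 not called, near the 5.59% and 4.73% of all genes. Response regulator Nitab4.5_0003856g0030, named after its values had been seen, had 2.02, 0.601 and 1.67 scaled TPM in YOE, against 4.32, 3.68 and 4.31 in K326 (log2 change -1.12, SE 0.22, limma adjusted p = 0.0128).

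UDP-glycosyltransferases, the family that holds the zeatin O-glucosyltransferases, had 8 higher and 11 lower members of 121 tested, with a median log2 difference of -0.20. The largest rise was at Nitab4.5_0004111g0010, with 2.17, 51.0 and 55.3 scaled TPM in YOE, against 1.66, 1.55 and 0.585 in K326. YOE library 1 was close to K326 here, and the gene passed in 1 of 6 fits with a library left out (log2 change 3.25, SE 0.84, limma adjusted p = 0.0353). Nitab4.5_0000037g0140 was lower and stable, at 5.69, 4.42 and 4.52 in YOE and 11.51, 12.0 and 15.5 in K326 (log2 change -1.25, SE 0.17, limma adjusted p = 0.00458). Nitab4.5_0000725g0120 was lower too, at 2.12, 1.01 and 1.44 in YOE and 4.79, 7.32 and 5.97 in K326, with KY in the YOE range (log2 change -1.49, SE 0.24, limma adjusted p = 0.00729). Which member, if any, is NtCISZOG is not given by the descriptions.

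Magnesium chelatase was not called at any of its 5 tested genes in limma, and 1 of them, higher in YOE, had an unadjusted p under 0.05. The ChlH copy Nitab4.5_0005195g0040 had 64.9, 73.6 and 40.01 scaled TPM in YOE, against 53.6, 39.5 and 64.7 in K326, and at most 0.306 in KY (log2 change 0.16, SE 0.31, limma adjusted p = 0.782). For the other ChlH copy, Nitab4.5_0010636g0020, the values were 83.6, 95.0 and 48.5 in YOE, against 72.4, 50.2 and 82.7 in K326 (log2 change 0.12, SE 0.36, limma adjusted p = 0.864). In both copies the groups overlapped, YOE library 3 was the lowest of its group and K326 library 2 the lowest of its own. The SE of 0.31 and 0.36 leaves room for changes of either sign.

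The subunit with the least spread was Nitab4.5_0000733g0210, described with the ChlI domain and a von Willebrand domain, with 11.8, 15.1 and 10.2 scaled TPM in YOE and 8.61, 6.73 and 9.32 in K326. The YOE libraries were above all 9 others, but YOE library 3 only just, at 10.17 against 10.13 in Q18 library 1, and KY had at most 0.094. The gene missed the threshold (log2 change 0.53, SE 0.18, limma adjusted p = 0.0805). The D subunit Nitab4.5_0001663g0090 and the I subunit Nitab4.5_0006237g0030 had log2 differences of 0.30 and 0.55 (limma adjusted p = 0.326 and 0.185). On unscaled values all 5 differences were negative, from -0.54 to -0.08, with none called.

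Genes of the remaining chlorophyll pathway had the same outcome. Of 34 tested genes of tetrapyrrole and chlorophyll synthesis, 0 were called in limma, 29 had a positive log2 difference, and the median was 0.20. At an unadjusted p under 0.05, 5 were higher and 1 lower. With 1 library left out, 0 to 2 were higher and 0 lower, and on unscaled values 0 were higher and 8 lower. Their summed level was 1854, 2203 and 1371 scaled TPM in YOE libraries 1, 2 and 3 and 1676, 1336 and 2167 in K326. Of 84 light-harvesting genes, 1 was called, the chlorophyll a/b binding gene Nitab4.5_0002210g0110. It was lower, at 6.77, 4.83 and 4.61 in YOE and 7.48, 14.1 and 24.4 in K326 (log2 change -1.23, SE 0.34, limma adjusted p = 0.0436). Of 70 Calvin cycle genes, 2 were higher and 0 lower.

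Photosystem genes had 21 higher and 1 lower of 164 tested, and 12 of the higher ones were copies described as PsaA/PsaB, the core of photosystem I. In plants these proteins are encoded in the plastid genome, and whether reads of plastid transcripts were counted on these copies was not tested. Nitab4.5_0000718g0190 had 13.4, 29.4 and 8.08 scaled TPM in YOE, against 1.88, 1.76 and 2.85 in K326 (log2 change 2.34, SE 0.44, limma adjusted p = 0.0113). It was the single stable gene of the photosystem list, and KY, at 8.86 to 19.8, lay inside the YOE range. Summed over 36 copies the level was 748, 1450.0 and 361 in YOE, against 348, 154 and 216 in K326, 85.9 to 181 in Q18 and 565 to 919 in KY. The lowest YOE library, 3, was close to the highest K326 library, and with 1 library left out 1 to 15 copies were called. The count was 1 without K326 library 2 or K326 library 3, 2 without YOE library 2, 7 without K326 library 1 and 8 without YOE library 1. On unscaled values 14 of 19 tested copies were higher and 1 lower. A photosystem antenna gene, Nitab4.5_0002369g0020, also of a plastid-encoded type, had 94.2, 141 and 63.8 in YOE and 41.8, 26.04 and 36.7 in K326 (log2 change 1.44, SE 0.29, limma adjusted p = 0.0152).

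Organelle-type ribosomal proteins had 1 higher and 1 lower of 66 tested (1.52% each, against 5.59% and 4.73% of all genes), and 22 of the 66 log2 differences were negative. Some single genes of types encoded in organelles were higher. A ribosomal protein L16 gene, Nitab4.5_0010033g0070, had 18.8, 33.8 and 20.8 scaled TPM in YOE and 2.56, 3.99 and 5.52 in K326 (log2 change 2.34, SE 0.28, limma adjusted p = 0.00313), with KY at 10.1 to 18.4. By its description, which also holds the cytosolic L10e name, this gene was counted in the cytosolic ribosomal list. A plastid-type ribosomal L22 gene, Nitab4.5_0013360g0010, a cytochrome c oxidase subunit I gene, Nitab4.5_0001127g0230, and a NADH dehydrogenase subunit 1 gene, Nitab4.5_0001313g0090, had log2 changes of 1.54, 1.29 and 1.64. KY lay inside the YOE range at these 3, and below it at the L16 gene. Of 100 genes of mitochondrial respiration, 8 were higher and 1 lower, and with 1 library left out 0 to 14 were higher. No called gene of this list or of the organelle-type ribosomal list was stable, and none was called in the 6 libraries alone.

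**Figure D5:**
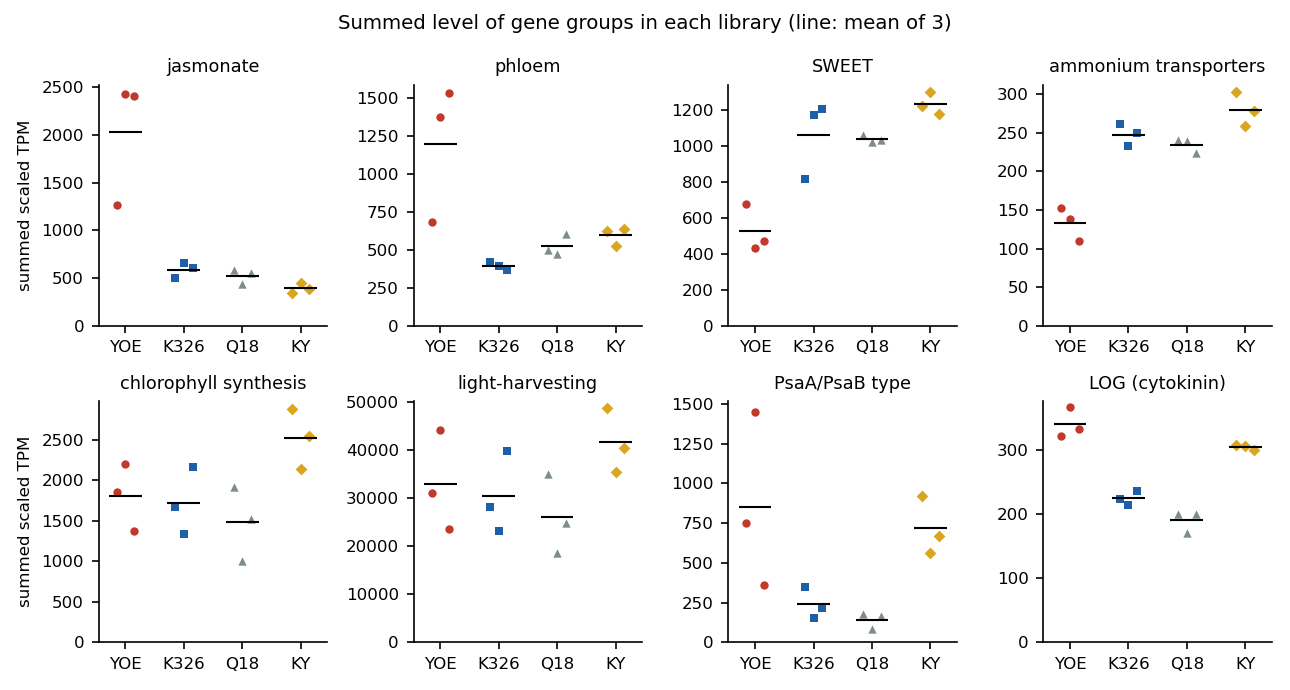
Summed scaled TPM of 8 gene groups in each library, with YOE first and the line at the mean of 3 libraries. YOE lies above K326 for jasmonate, phloem and LOG genes and below it for SWEET and ammonium transporters, while the groups overlap for chlorophyll synthesis (1371 to 2203 in YOE and 1336 to 2167 in K326) and light-harvesting genes.

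Auxin genes had 17 higher and 8 lower of 156 tested, with a median log2 difference of 0.05. The GH3 family, whose enzymes join hormones such as auxin or jasmonate to amino acids, had 8 higher and 1 lower of 15, with 2 stable. Nitab4.5_0000522g0190, named after its values had been seen, had 12.1, 23.3 and 28.6 scaled TPM in YOE, against 3.78, 6.14 and 3.46 in K326 (log2 change 1.98, SE 0.26, limma adjusted p = 0.00435). On unscaled values 2 GH3 genes were higher and 5 lower. Of the small auxin-induced genes described as ARG7, 4 were lower and 2 higher of 44. Nitab4.5_0000319g0260 had 3.39, 3.98 and 4.99 in YOE, against 14.4, 16.01 and 23.7 in K326 (log2 change -1.88, SE 0.21, limma adjusted p = 0.00251). Nitab4.5_0000307g0200 fell by 1.43 on the log2 scale and was below all 9 other libraries too.

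Cell wall genes had 41 higher and 8 lower of 191 tested, with 18 stable higher members and a median log2 difference of 0.27. On unscaled values 16 were higher and 38 lower. Expansins, which loosen the wall, had 7 of 27 higher and 0 lower. Nitab4.5_0003323g0020 had 13.3, 30.01 and 21.9 scaled TPM in YOE, against 4.03, 3.17 and 4.27 in K326 (log2 change 2.17, SE 0.30, limma adjusted p = 0.00458). A pectinesterase inhibitor gene, Nitab4.5_0000262g0190, had 8.37, 25.7 and 12.3 in YOE, against 1.28, 2.69 and 0.836 in K326 (log2 change 2.58, SE 0.34, limma adjusted p = 0.00425). Pectinesterases and their inhibitors had 16 of 53 higher and 2 lower, and xyloglucan enzymes, which cut and rejoin wall polymers, 10 of 31 higher and 1 lower. Cellulose synthases had 2 of 24 higher and 4 lower.

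Xylem-type genes, here multicopper oxidases such as laccases and FAS1-domain proteins, had 18 higher and 0 lower of 48. The FAS1 gene Nitab4.5_0006973g0030 had 19.8, 17.3 and 27.98 scaled TPM in YOE, against 5.23, 2.07 and 0.864 in K326 (log2 change 2.76, SE 0.41, limma adjusted p = 0.00584). A second FAS1 gene, Nitab4.5_0004358g0060, had 16.5, 28.7 and 17.6 in YOE and 7.80, 6.04 and 4.63 in K326 (log2 change 1.60, SE 0.25, limma adjusted p = 0.00668). Both were above all 9 other libraries. Summed over the list the level was 586, 695 and 737 in YOE, against 417, 354 and 305.5 in K326, 241 to 395 in Q18 and 310.5 to 351 in KY. With 1 library left out, 6 to 18 were higher, and on unscaled values 11 were higher and 6 lower.

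Terpene synthases, many of them active in glandular hairs, had 12 higher and 1 lower of 35. Nitab4.5_0000503g0010 had 5.65, 10.7 and 26.8 scaled TPM in YOE, against 0.0433, 1.51 and 0.985 in K326 (log2 change 2.90, SE 0.47, limma adjusted p = 0.00774). The lower one, Nitab4.5_0002556g0060, has the domain of terpene cyclases of the squalene type, and had 2.89, 0.853 and 1.64 in YOE and 5.75, 15.8 and 11.2 in K326 (log2 change -2.06). On unscaled values 8 were higher and 7 lower, with a median of -0.35.

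Transcription factors were called in both directions. AP2/ERF genes, many of which respond to ethylene, jasmonate or cold, had 18 higher and 2 lower of 166. Nitab4.5_0000600g0080 had 8.24, 22.7 and 24.4 scaled TPM in YOE, against 3.79, 1.87 and 0.938 in K326 (log2 change 2.57, SE 0.42, limma adjusted p = 0.0074). Nitab4.5_0001886g0060 had 6.48, 9.73 and 11.3 in YOE, against 3.23, 3.69 and 3.56 in K326 (log2 change 1.15, SE 0.17, limma adjusted p = 0.00498). MYB genes had 10 higher and 24 lower of 266. Nitab4.5_0003212g0030 had 4.73, 3.35 and 2.91 in YOE, against 13.5, 12.3 and 15.02 in K326 (log2 change -1.66, SE 0.17, limma adjusted p = 0.00245). The Myb gene with the smallest p, Nitab4.5_0018794g0010, was nearly silent outside YOE, with 7.29, 5.82 and 3.54 in YOE and at most 0.352 in K326 (log2 change 2.43, SE 0.22, limma adjusted p = 0.00151). On unscaled values AP2/ERF genes turned to 8 higher and 35 lower.

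WRKY and NAC genes, families of defence and senescence, had calls in both directions, as did all genes tested (5.59% higher and 4.73% lower). WRKY genes had 6 higher and 8 lower of 95 (6.32% and 8.42%), and NAC genes 7 higher and 6 lower of 70 (10.0% and 8.57%). None of the 14 called WRKY genes was stable, and of the NAC genes 2, both lower, were. The WRKY gene Nitab4.5_0002568g0030 had 14.5, 56.8 and 108 scaled TPM in YOE, against 5.39, 6.57 and 4.67 in K326 (log2 change 2.82, SE 0.54, limma adjusted p = 0.0119). A second WRKY gene, Nitab4.5_0008962g0010, was more even, at 72.96, 69.5 and 84.7 in YOE and 40.6, 41.2 and 26.3 in K326 (log2 change 1.07, SE 0.26, limma adjusted p = 0.0254). The NAC gene Nitab4.5_0010511g0010 had 17.9, 13.2 and 10.7 in YOE, against 35.7, 29.0 and 28.01 in K326 (log2 change -1.12), and Nitab4.5_0001320g0120 had a log2 change of -1.02. GATA factors, some of which promote greening downstream of cytokinin in Arabidopsis, had 4 higher and 0 lower of 40, and on unscaled values 0 higher and 10 lower. Nitab4.5_0008544g0010 had 11.9, 12.7 and 13.6 in YOE, against 6.26, 5.38 and 4.10 in K326 (log2 change 1.15, SE 0.20, limma adjusted p = 0.00961).

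Water channels had 10 higher and 5 lower of 55 tested. Aquaporin Nitab4.5_0000575g0130 had 38.4, 61.0 and 38.8 scaled TPM in YOE, against 16.9, 20.1 and 14.8 in K326 (log2 change 1.34, SE 0.19, limma adjusted p = 0.00513). Nitab4.5_0001192g0080 had 3.92, 9.23 and 5.52 in YOE and 1.56, 0.597 and 1.22 in K326, but KY was higher still, at 15.6 to 17.6 (log2 change 1.73, SE 0.25, limma adjusted p = 0.00546). Histones, which rise in dividing cells, had 21 higher and 1 lower of 125, but only 2 were stable, and with 1 library left out the higher count ran from 2 (without YOE library 2) to 33 (without YOE library 3). It was 5 without K326 library 2, 10 without K326 library 3 and 12 without K326 library 1. The H2A gene Nitab4.5_0000977g0020 had 56.8, 78.6 and 67.3 in YOE, against 35.4, 25.6 and 25.5 in K326 (log2 change 1.20, SE 0.19, limma adjusted p = 0.00627), and Nitab4.5_0001651g0150, also H2A, had a log2 change of 1.36. Cyclins and replication genes had 5 higher and 1 lower of 63. Cyclin Nitab4.5_0009759g0010 had 5.07, 9.79 and 5.68 in YOE, against 2.60, 2.34 and 1.86 in K326, with KY at 3.96 to 6.34 (log2 change 1.22, SE 0.22, limma adjusted p = 0.00968). The TFIIB-type gene Nitab4.5_0003307g0030, a general transcription factor with a cyclin fold, had a log2 change of 1.52. On unscaled values histones turned to 8 higher and 27 lower.

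Glutathione transferases, which conjugate electrophiles to glutathione, had 14 lower and 1 higher of 84. Nitab4.5_0007720g0010 had 10.8, 8.28 and 7.38 scaled TPM in YOE, against 39.6, 36.9 and 30.1 in K326 (log2 change -1.90, SE 0.25, limma adjusted p = 0.00415), and KY, at 5.69 to 10.6, overlapped YOE. Nitab4.5_0009332g0020 had 20.6, 16.6 and 13.6 in YOE, against 36.6, 43.0 and 43.0 in K326, and was below all 9 other libraries (log2 change -1.24, limma adjusted p = 0.00359). Heat shock genes had 4 higher and 16 lower of 216 and DnaJ co-chaperones 3 higher and 21 lower of 215. The DnaJ gene Nitab4.5_0000368g0400 had 4.01, 1.32 and 3.72 in YOE, against 8.87, 13.2 and 15.3 in K326 (log2 change -1.79). Another DnaJ gene, Nitab4.5_0011198g0010, was higher than in K326, at 5.44, 20.9 and 15.98 in YOE and 2.52, 0.865 and 1.82 in K326, while KY had 55.7 to 61.3 (log2 change 2.34, SE 0.38, limma adjusted p = 0.00754). The chaperonin Cpn60 gene Nitab4.5_0000106g0330 and the Hsp20 gene Nitab4.5_0005222g0020 had log2 changes of 1.48 and 1.18. The median log2 difference of the heat shock list was -0.12. None of its 4 higher genes and 1 of its 16 lower genes was stable, and with 1 library left out 0 to 11 were higher.

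Papain-type cysteine proteases, which degrade proteins in the vacuole, had 6 higher and 6 lower of 30. Nitab4.5_0009436g0030 had 18.7, 9.95 and 12.0 scaled TPM in YOE, against 29.3, 40.8 and 46.0 in K326, with KY at 13.5 to 16.9 (log2 change -1.47, SE 0.22, limma adjusted p = 0.00605). Nitab4.5_0010210g0010 moved the other way, at 15.5, 23.97 and 15.7 in YOE and 8.37, 7.93 and 7.66 in K326 (log2 change 1.08, SE 0.17, limma adjusted p = 0.00668). Chitinases, PR proteins and proteinase inhibitors, which act in defence, had 9 higher and 5 lower of 93. A thaumatin gene, Nitab4.5_0000494g0090, had 7.52, 10.6 and 14.7 in YOE, against 0.444, 1.02 and 0.167 in K326, and KY, at 4.12 to 10.3, overlapped YOE (log2 change 2.94, SE 0.43, limma adjusted p = 0.00546). The major latex protein gene Nitab4.5_0001504g0010 had 44.0, 36.3 and 42.4 in YOE, against 71.7, 114 and 159 in K326 (log2 change -1.40, SE 0.26, limma adjusted p = 0.0108).

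Lipid transfer proteins had 7 higher and 4 lower of 64. Nitab4.5_0002865g0080 had 12.6, 12.4 and 13.4 scaled TPM in YOE, against 5.66, 5.13 and 4.79 in K326, and was above all 9 other libraries (log2 change 1.16, SE 0.16, limma adjusted p = 0.00449). Nitab4.5_0005076g0020 had 5.09, 6.48 and 5.87 in YOE, against 1.62, 0 and 0.158 in K326, with KY at 4.61 to 9.84. Clock and light signalling genes had 3 higher and 5 lower of 66 (4.55% and 7.58%, against 5.59% and 4.73% of all genes). The blue-light receptor gene described as cryptochrome, Nitab4.5_0003380g0010, had 19.5, 8.22 and 16.5 in YOE, against 27.8, 33.3 and 29.2 in K326 (log2 change -1.06, SE 0.24, limma adjusted p = 0.022). A B-box gene with a CCT domain, Nitab4.5_0013739g0010, had 19.9, 16.6 and 38.0 in YOE, against 9.53, 7.25 and 11.3 in K326, with KY at 38.0 to 40.2 (log2 change 1.25, SE 0.25, limma adjusted p = 0.0149).

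Gibberellin and abscisic acid genes had 5 higher and 6 lower of 74 (6.76% and 8.11%). Carotenoid and isoprenoid genes had 2 higher and 2 lower of 38 (5.26% each). The shares over all genes tested were 5.59% and 4.73%. A GRAS gene, Nitab4.5_0000647g0060, whose family includes the repressors of gibberellin response, had 9.04, 6.51 and 10.02 scaled TPM in YOE, against 3.53, 2.62 and 1.45 in K326 (log2 change 1.46, SE 0.21, limma adjusted p = 0.00508). The carotenoid oxygenase Nitab4.5_0001333g0020, of the family that cleaves carotenoids, had 41.3, 19.2 and 23.3 in YOE, against 46.4, 80.4 and 99.9 in K326, and passed in 3 of 6 fits with a library left out (log2 change -1.41, SE 0.30, limma adjusted p = 0.0166). A gene with a transketolase domain, Nitab4.5_0000402g0040, had 11.8, 15.8 and 8.28 in YOE, against 1.86, 3.28 and 2.82 in K326 (log2 change 1.80, SE 0.25, limma adjusted p = 0.00458).

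Housekeeping lists held few calls. Cytosolic ribosomal proteins had 6 higher and 0 lower of 284, with a median log2 difference of 0.09, and proteasome and ubiquitin genes 1 higher and 4 lower of 236. Genes of RNA splicing and helicases had 9 higher and 18 lower of 644. On unscaled values these 3 lists had 105, 132 and 286 lower members, the shift of -0.51 described above. Ribosomal protein S27e gene Nitab4.5_0007345g0040 had 6.81, 31.1 and 97.5 scaled TPM in YOE, against 1.50, 4.63 and 4.30 in K326, and passed in 1 of 6 fits with a library left out. The helicase Nitab4.5_0004389g0030 and the ubiquitin-conjugating enzyme Nitab4.5_0000522g0060 had log2 changes of 1.37 and 1.18. Immune receptors of the NB-ARC type had 6 higher and 5 lower of 143 (4.20% and 3.50%). Root-type genes, of the UPF0497 and berberine bridge families, had 2 higher and 3 lower of 47 (4.26% and 6.38%). Both lists lay near the 5.59% and 4.73% of all genes. The UPF0497 gene Nitab4.5_0002905g0040 had 1.58, 1.96 and 1.81 in YOE, against 12.5, 11.5 and 6.23 in K326 (log2 change -1.94, SE 0.34, limma adjusted p = 0.00937), and the berberine bridge gene Nitab4.5_0002005g0020 had a log2 change of 1.50.

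The list of pollen and flower genes had 11 higher and 1 lower of 61, with a median log2 difference of 0.01, late embryogenesis genes 10 higher and 4 lower of 73, and receptor kinases 24 higher and 14 lower of 297. On unscaled values these had 5, 1 and 3 higher members and 22, 18 and 84 lower ones. The Pollen Ole e 1 domain gene Nitab4.5_0006859g0020, of a family also found in extensins, had 132, 200.5 and 168 scaled TPM in YOE, against 82.3, 56.3 and 49.5 in K326 (log2 change 1.41, SE 0.24, limma adjusted p = 0.00936), and its relative Nitab4.5_0001339g0060 had a log2 change of 1.82. The LEA-14 gene Nitab4.5_0000287g0140 had 19.5, 18.03 and 31.4 in YOE, against 8.85, 7.89 and 4.64 in K326 (log2 change 1.56, SE 0.23, limma adjusted p = 0.00546), opposite in direction to the LEA-5 gene above. Receptor kinase Nitab4.5_0005624g0020 had 5.02, 9.25 and 21.1 in YOE, against 1.47, 0.880 and 0.121 in K326 (log2 change 2.68, SE 0.44, limma adjusted p = 0.00783), and the lectin kinase Nitab4.5_0001223g0150 had a log2 change of -1.08.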

How the data were processed

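The 12 libraries, all of tobacco leaf RNA, fall by their labels into YOE, K326, Q18 and KY with 3 each. The deposited values were taken as TPM, which corrects for gene length; Salmon and StringTie are named, without versions, in the submitters' processing notes. No unit stands in the header, columns sum to 334759 to 676862, and FPKM remains possible. The genome build and the sequencing depth are not given in the sources used here, so no intervals on counts are given. Gene names are domain descriptions in the table, and 0 identifiers matched the RefSeq gene table.

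Genes were tested where 3 or more libraries reached a scaled value of 1. The model, 4 group means for log2(value + 1), used limma 3.58.1 under R 4.3.3 with its trend and robust options. P-values were adjusted by Benjamini-Hochberg and called at 0.05. The pseudocount of 1 makes the change of a low gene look smaller than it is. Members and the 46 gene lists, matched to descriptions by patterns, were chosen with earlier results of these data known. Families inside a list (SWEET, Tify, LOG, GH3 and the like) were set after the values were seen.

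Named were the 12 largest changes in each direction among called genes with an informative description, groups that do not overlap and a mean of at least 10 in the higher group, from each list the 2 genes of smallest p (log2 change of at least 1 in size, mean of at least 5), and all tested chelatase genes. A further 34 genes were chosen after their values were seen, and those printed are marked so. Over all genes tested, 27.1% had groups that do not overlap. Same-numbered YOE and K326 libraries did not deviate together. The labels do not say that replicate numbers pair samples, so the replicate block was an alternative. Others were scaling, filters, the pseudocount, the libraries used and each library left out. Tables and plots were made in Python 3.11.15 (numpy 2.4.6, pandas 2.3.3, matplotlib 3.10.9).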

Additional observations from a re-analysis of the deposited data

How the results depend on the processing

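The total of 3206 genes (1738 higher, 1468 lower) depended most on which libraries entered. Leaving out 1 library gave 868 to 5265 genes, 484 to 2807 higher and 384 to 2458 lower. The 6 compared libraries alone gave 179 (118 and 61). Leaving out YOE library 2 and K326 library 2 together, chosen after seeing the data as the libraries with the lowest and highest factors of these groups, gave 148 (92 and 56). Unscaled values gave 12143 (592 and 11551). A fold of at least 2 left 1321 (939 and 382), and a mean of at least 5 left 1983 of 14002 tested, 1015 higher and 968 lower. No filter gave 1024 lower genes, 1374 higher and 2398 in all. Quantile normalization (3387), scaling over genes at 5 or more (3020), a pseudocount of 0.1 (3051) and no trend or robust setting (3244) stayed within 1.5 times. With the replicate number as a block 2719 genes were called, 1509 higher and 1210 lower. Correlations of the deviations of same-numbered libraries were 0.014, -0.216 and -0.135, and those of unlike-numbered libraries ran from -0.131 to 0.271. With 3 libraries a side these values show no sign of pairing but cannot exclude it, and the labels do not say.

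Of the 133 genes picked by the naming rule or chosen later, 128 were called. In the 6 libraries alone 32 of the 127 with a value kept their call. There fewer libraries estimate the spread, and Q18 and KY do not enter it. On unscaled values 110 of the called genes kept their call, 126 with quantile normalization and 125 with the block. No called gene of these changed sign in the settings that gave it a value (124 to 128 genes in each, 102 with a mean of at least 5), and the pair of libraries left out together was not examined for single genes. Magnesium chelatase genes, none called, changed sign on unscaled values, with log2 differences of -0.08 (Nitab4.5_0000733g0210), -0.32 (Nitab4.5_0001663g0090), -0.50 (Nitab4.5_0005195g0040), -0.10 (Nitab4.5_0006237g0030) and -0.54 (Nitab4.5_0010636g0020). The last was also -0.03 with quantile normalization. With 1 library left out, Nitab4.5_0005195g0040 ran from -0.03 to 0.42 and Nitab4.5_0010636g0020 from -0.09 to 0.41. The first was at -0.02 without YOE library 2 and -0.03 without K326 library 2, and the second at -0.07 and -0.09. The cause of these shifts was not tested. Read depth is unknown, so low genes carry an error that the values do not show.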

Other observations

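Several families that the lists did not hold also had many called members. They were picked after all domain names had been scanned for their counts, so the counts are descriptions only. The counts stand against 5.59% higher and 4.73% lower over all genes tested. Homeobox genes of the KN and POX types, which include regulators of meristems, had 11 lower and 0 higher of 29 tested, with a median log2 difference of -0.49. Nitab4.5_0001714g0080 had 10.01, 7.83 and 7.01 scaled TPM in YOE, against 16.2, 16.1 and 20.3 in K326 (limma adjusted p = 0.00458). Of the 11, 2 passed in every fit with a library left out. Proton-dependent oligopeptide transporters, a family that includes nitrate transporters, had 17 lower and 4 higher of 59, with a median log2 difference of -0.11. Of the 17, 2 were stable, and none of the 21 called genes was called in the 6 libraries alone. Summed over the family the level was 408 to 703 scaled TPM in YOE and 424 to 486 in K326. Nitab4.5_0000874g0180 had 24.8, 11.46 and 6.23 in YOE, against 48.2, 42.7 and 49.5 in K326 (log2 change -1.85, SE 0.33, limma adjusted p = 0.0104).

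Genes described as phosphate-induced protein 1 had 6 higher and 0 lower of 14 tested, and all 14 log2 differences were positive. Of the 6, 2 were stable. Nitab4.5_0002401g0030 had 126, 289.5 and 281 scaled TPM in YOE, against 76.7, 83.4 and 70.5 in K326 (log2 change 1.49, SE 0.28, limma adjusted p = 0.0108). Glycoside hydrolases of family 17, which cut callose and related glucans, had 16 higher and 4 lower of 52 (11 and 15 on unscaled values), although one of them was among the largest falls. Stable members were 4 of the 16 and 1 of the 4. Cytochrome P450 genes had 18 higher and 29 lower of 190 (9.47% and 15.3%), of which 3 and 7 were stable. NPH3-domain genes, relatives of a blue-light signalling protein in Arabidopsis, had 8 lower and 0 higher of 40, and 1 of the 8 was stable.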
